A study of Homo sapiens with 8 samples.

Results

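The integrated stress response regulators described here are 10 human genes, ATF4, DDIT3, ATF3, CEBPB, TRIB3, CHAC1, DDIT4, SESN2, PPP1R15A and NIBAN1, followed in aggregates of the neuroblastoma (NB) cell line IGR-N91. They were chosen by symbol, each symbol being matched to its Ensembl identifier, and make up 10 of the 60676 identifiers counted. All 10 passed the filter on low counts, as did 16680 genes in all. The list was drawn up with the changes against control medium in these libraries already known, so those changes are described by their values, no p-value is given for them, and the number that met the study's criteria is printed only beside the share of all genes that did.

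IGR-N91 is an established human NB cell line, grown here as aggregates in hanging drops. Aggregates were kept in 1 of 4 media, for 20 h per the labels and methods and 24 h per the series' design text, and 2 libraries were sequenced per medium, 8 in all. The control medium had not been in contact with ganglia. E8-cSGcm (spelled E8-cGScm in part of the labels) was conditioned by sympathetic ganglia of E8 chick embryos (embryonic day 8), E8-cDRGcm by dorsal root ganglia of E8 chick embryos, and E15.5-mSGcm by sympathetic ganglia of E15.5 mouse embryos. All groups share the 1 cell line, the hanging drop culture and the RNA protocol, and nothing in the labels says that the 2 libraries of a medium came from separate cultures, so that the p-values below measure the spread between these libraries, which may be technical. Species, embryonic age and ganglion type differ together between the chick and the mouse media and cannot be told apart where E15.5-mSGcm is set against E8-cDRGcm, and species and age cannot be told apart where it is set against E8-cSGcm.

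The integrated stress response is the shared arm of several stress pathways. The kinases PERK (EIF2AK3), GCN2, PKR and HRI phosphorylate the translation factor eIF2alpha, which lowers protein synthesis in general while the mRNA of the transcription factor ATF4 is translated more. ATF4 and its partners then switch on genes for amino acid supply, redox balance, cell death and the recovery of translation, so that the amount of ATF4 protein is set largely by translation and is not measured by RNA counts.

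Total counts ranged from 7930765 to 15060744 per library, with the 2 libraries of E15.5-mSGcm lowest and the other 6 at 12286211 or more. Levels are given as CPM, the counts of a gene scaled to a common library total with TMM factors, and 3 counts, taken as the floor, correspond to 0.199 to 0.378 CPM. The floor covers counting error only, because the reads carry no molecular identifiers and are not separate molecules. Of 10 neuroblast markers, 9 were detected and CHGA had no read in any library. Their summed level was 6670 to 6822 CPM in control medium, 5163 to 5474 in E8-cSGcm, 3973 to 4056 in E8-cDRGcm and 4140 to 4308 in E15.5-mSGcm. MYCN, with 21103 to 70102 reads, weighs most in this sum, and CHGB came next with 4543 to 11507. Against control medium 2, 6 and 3 of the 9 were called down in the same order of conditioned media, and 0 up. DBH was called up in E15.5-mSGcm against each chick medium, ISL1 against E8-cDRGcm only, and TH down against each. The glial markers SOX10 and FABP7 had no read in any library, and ERBB3, with 9 to 43 reads, was called up by edgeR in E8-cDRGcm and E15.5-mSGcm against control medium and in E8-cDRGcm against E8-cSGcm. The 6 fibroblast markers summed to 157 to 174 CPM in control medium, 212 to 222 in E8-cSGcm, 193 to 200 in E8-cDRGcm and 161 to 174 in E15.5-mSGcm, and members moved in opposite directions in E15.5-mSGcm. There DCN, PDGFRA, LUM and COL1A2 were called up and COL1A1, the marker with up to 2021 reads, down against control medium (median log2 of the 6 markers 1.47), and against each chick medium the other 5 were called up and COL1A1 down. The 6 sensory neuron markers, SCN10A at 0, summed to between 2.62 and 8.95 CPM. Immune markers (4, AIF1 at 0) reached at most 1.15 CPM and endothelial markers (3, CDH5 at 0) at most 1.60 CPM. The part of these differences in the results below was not tested, and in bulk RNA fewer cells of a type and less RNA per cell cannot be told apart.

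Promoter windows (250 bases before to 50 bases after a RefSeq transcription start, GRCh38.p14) were available for all 10 regulators, 16 windows in total. The C/EBP-ATF composite element TGATGNAA, the site type bound by ATF4 with C/EBP partners, was found on either strand in windows of ATF3 and CHAC1, against 3.62% of all 35116 windows. The cAMP response element TGACGTCA, which reads the same on both strands, was found in PPP1R15A, against 1.85% of all windows. The ER stress element (CCAAT and CCACG with 9 bases between them) was found in 0 of the 16 windows, against 0.0769% of all. None of the searched letters overlapped within a window. The 3 windows with a match are shown, with the matched bases in capitals, beside the window of NIBAN1, which had the widest range of levels and no match. They lie at chr15:40953221-40953520 (plus strand, match 209 to 202 bases before the start) for CHAC1, chr1:212565157-212565456 (plus strand, first of 2 windows, match 191 to 184 bases before the start) for ATF3, chr19:48872171-48872470 (plus strand, match 58 to 51 bases before the start) for PPP1R15A and chr1:184974459-184974758 (minus strand) for NIBAN1.
CHAC1: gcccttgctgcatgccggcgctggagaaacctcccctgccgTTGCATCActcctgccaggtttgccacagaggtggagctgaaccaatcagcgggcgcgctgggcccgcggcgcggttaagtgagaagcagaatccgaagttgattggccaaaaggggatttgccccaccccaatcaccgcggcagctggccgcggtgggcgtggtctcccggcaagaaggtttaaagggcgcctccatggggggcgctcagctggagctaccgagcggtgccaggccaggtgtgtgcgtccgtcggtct
ATF3: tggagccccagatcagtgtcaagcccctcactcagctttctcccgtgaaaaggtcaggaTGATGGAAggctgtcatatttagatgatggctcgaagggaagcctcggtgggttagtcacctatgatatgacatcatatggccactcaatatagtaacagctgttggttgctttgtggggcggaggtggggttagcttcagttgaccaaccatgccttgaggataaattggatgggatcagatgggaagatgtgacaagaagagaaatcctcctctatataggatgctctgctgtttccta
PPP1R15A: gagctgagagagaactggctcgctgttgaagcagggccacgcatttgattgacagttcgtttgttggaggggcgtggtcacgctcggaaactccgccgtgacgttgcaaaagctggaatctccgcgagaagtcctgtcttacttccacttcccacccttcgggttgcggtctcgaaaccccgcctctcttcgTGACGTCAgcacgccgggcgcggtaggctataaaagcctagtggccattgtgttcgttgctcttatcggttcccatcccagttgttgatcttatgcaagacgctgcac
NIBAN1: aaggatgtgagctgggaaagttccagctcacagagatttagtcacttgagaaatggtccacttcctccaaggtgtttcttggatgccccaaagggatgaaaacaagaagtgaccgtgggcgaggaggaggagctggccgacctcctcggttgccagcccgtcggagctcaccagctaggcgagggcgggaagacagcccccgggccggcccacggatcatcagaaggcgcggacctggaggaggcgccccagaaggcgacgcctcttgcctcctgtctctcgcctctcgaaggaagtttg
A match is a description of the letters in these windows and says nothing on whether a factor was bound. ATF3 and CHAC1, the carriers of TGATGNAA, were both below control medium in all 3 conditioned media, and so was SESN2, which had no match. PPP1R15A and NIBAN1 were both above it. ATF4, DDIT3, CEBPB, TRIB3 and DDIT4, also without a match, had means above control medium in some media and below it in others. No link between a match and a direction was tested.

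The 10 regulators did not move as a block. TRIB3, DDIT3 and NIBAN1 were higher than in control medium in both chick media and highest in E8-cDRGcm. PPP1R15A and CEBPB were raised mainly in E8-cDRGcm. ATF3, CHAC1 and SESN2 were below control medium in all 3 conditioned media, and ATF4 and DDIT4 moved least.

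**Figure D1:**
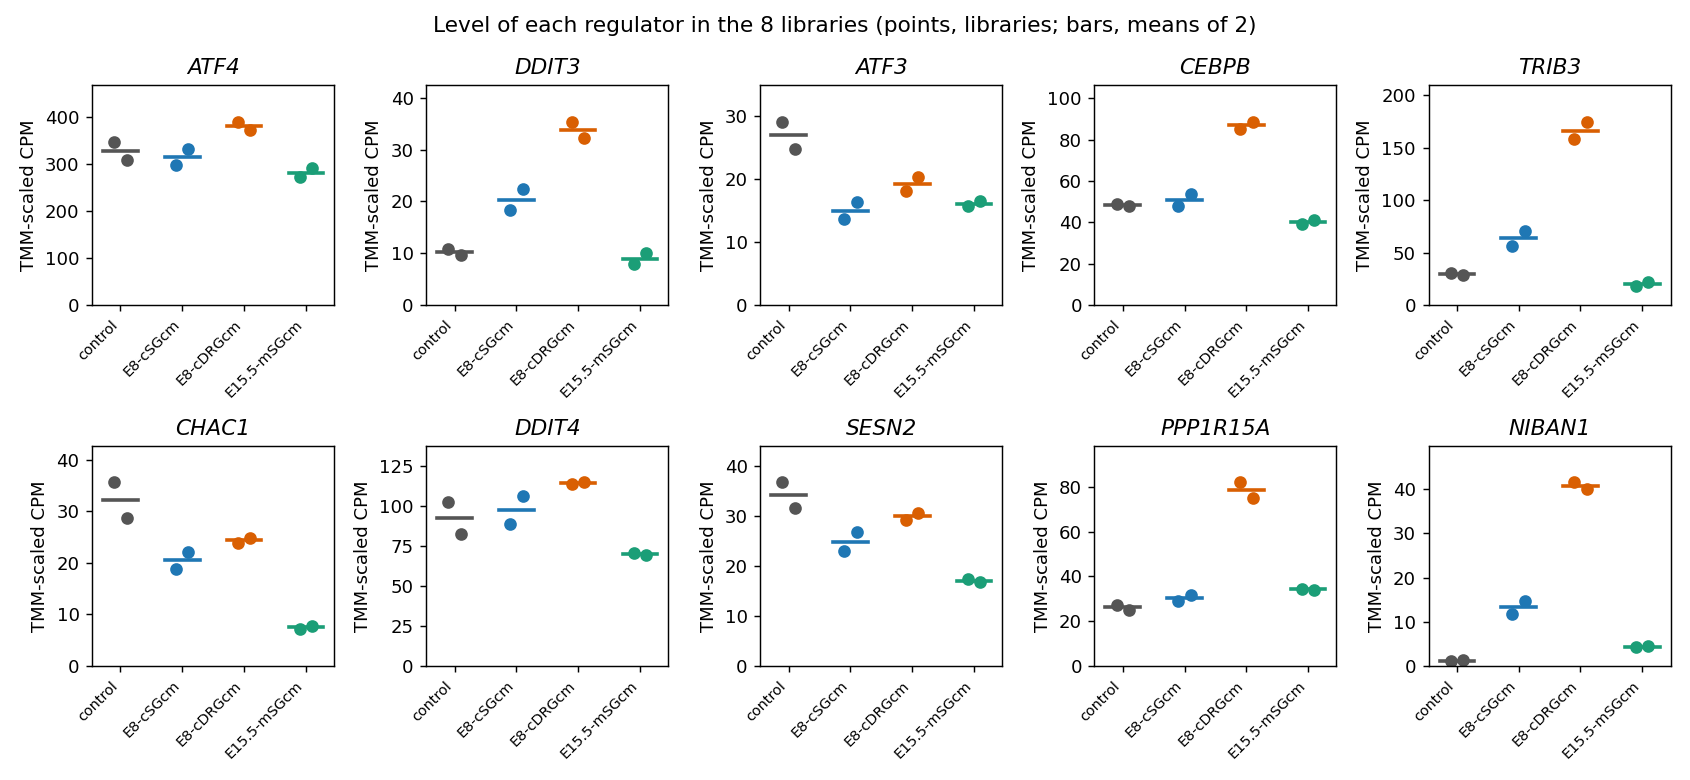
TMM-scaled CPM (linear axes from 0) of each of the 10 regulators in control medium, E8-cSGcm, E8-cDRGcm and E15.5-mSGcm. Points are the 2 libraries of a medium and bars their mean. Both E8-cDRGcm libraries lie above the other 6 in ATF4, DDIT3, CEBPB, TRIB3, DDIT4, PPP1R15A and NIBAN1. Both E15.5-mSGcm libraries lie below the other 6 in ATF4, CEBPB, TRIB3, CHAC1, DDIT4 and SESN2.

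Among the transcription factors, ATF4 (ENSG00000128272, chromosome 22, 39915700 to 39918688, plus strand, GRCh37), the factor through which the response acts on transcription, had 348 and 309 CPM in control medium, 299 and 332 in E8-cSGcm, 391 and 373 in E8-cDRGcm and 273 and 292 in E15.5-mSGcm. Both E8-cDRGcm libraries were above, and both E15.5-mSGcm libraries below, the control libraries, while E8-cSGcm overlapped them. The differences from control were small on the log2 scale, at -0.057 (SE 0.0564), 0.22 (SE 0.0561) and -0.22 (SE 0.0580) in the same order of media. Corrected for GC content and exonic length, the value in E15.5-mSGcm was -0.077. The processed pseudogenes ATF4P3 and ATF4P4 held 127 to 368 and 86 to 197 reads per library, against 2134 to 5239 for ATF4, and reads of these near-copies can be split between them.

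DDIT3 (ENSG00000175197, chromosome 12, 57910371 to 57915520, minus strand) encodes CHOP, the factor associated with cell death after long stress. It had 10.8 and 9.58 CPM in control medium, 18.3 and 22.4 in E8-cSGcm, 35.4 and 32.3 in E8-cDRGcm and 7.93 and 10.04 in E15.5-mSGcm. The chick media did not overlap control medium or each other, and E15.5-mSGcm overlapped control medium. DDIT3 was 2.01-fold higher in E8-cSGcm (log2 1.01, SE 0.124) and 3.34-fold higher in E8-cDRGcm (log2 1.74, SE 0.115). In E15.5-mSGcm its log2 difference from control was -0.17 (SE 0.162). Its exons share 355 bases with MARS1, a methionyl-tRNA synthetase gene on the opposite strand with 1732 to 5888 reads per library, and 58 bases with MBD6. The kit was stranded, but the strand setting of the counting is not given in the sources used here, and without it reads of these overlaps cannot be told apart.

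ATF3 (ENSG00000162772, chromosome 1, 212738676 to 212794119, plus strand), a stress-induced factor of the same bZIP family that often represses its targets, had its highest levels in control medium, at 29.1 and 24.7 CPM. It had 13.7 and 16.3 CPM in E8-cSGcm, 18.1 and 20.3 in E8-cDRGcm and 15.7 and 16.4 in E15.5-mSGcm, so that each of the 6 conditioned libraries was below both controls. The fall was 1.78-fold in E8-cSGcm (log2 -0.83, SE 0.1098) and 1.66-fold in E15.5-mSGcm (log2 -0.73, SE 0.120). In E8-cDRGcm the log2 difference was -0.48 (SE 0.105), under the 1.5-fold criterion, and it was -0.60 without the second control library, which is past it. With counts thinned to the smallest library total it was past the criterion as well.

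CEBPB (ENSG00000172216, chromosome 20, 48807367 to 48809205, plus strand), a C/EBP factor that can pair with ATF4, had 48.7 and 48.0 CPM in control medium, 47.9 and 53.6 in E8-cSGcm, 85.3 and 88.7 in E8-cDRGcm and 39.0 and 40.9 in E15.5-mSGcm. E8-cDRGcm stood apart, 1.80-fold above control (log2 0.85, SE 0.0683). E8-cSGcm overlapped control medium (log2 0.074, SE 0.0724), and the lower level in E15.5-mSGcm (log2 -0.27, SE 0.0812) became 0.0097 with the correction for GC content and exonic length. The antisense gene CEBPB-AS1, which shares 231 exonic bases, had 5 to 29 reads per library against 305 to 1213 for CEBPB.

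Among the effectors and feedback genes, TRIB3 (ENSG00000101255, chromosome 20, 343479 to 378203, plus strand), a pseudokinase induced by ATF4 and CHOP that restrains ATF4 activity, had 30.5 and 28.8 CPM in control medium. It had 56.3 and 71.1 CPM in E8-cSGcm, 158 and 175 in E8-cDRGcm and 18.7 and 21.7 in E15.5-mSGcm. The 4 media did not overlap, in the order E15.5-mSGcm, control, E8-cSGcm and E8-cDRGcm. TRIB3 was 2.16-fold higher in E8-cSGcm (log2 1.11, SE 0.0964) and 5.63-fold higher in E8-cDRGcm (log2 2.49, SE 0.0890). In E15.5-mSGcm the log2 difference was -0.55 (SE 0.127), just under the 1.5-fold criterion, and passed it without the second control library (-0.60) or without the second E15.5-mSGcm library (-0.67). It also passed with the filter at 1 count over all libraries and with library totals without TMM. With the correction for GC content and length it was -0.35.

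CHAC1 (ENSG00000128965, chromosome 15, 41245160 to 41248710, plus strand), an enzyme that degrades glutathione and is a widely used readout of ATF4 activity, went the other way. It had 35.6 and 28.8 CPM in control medium, 18.7 and 22.2 in E8-cSGcm, 23.8 and 24.8 in E8-cDRGcm and 7.16 and 7.75 in E15.5-mSGcm. All 6 conditioned libraries were below both controls, with E15.5-mSGcm 4.28-fold lower (log2 -2.10, SE 0.141). In E8-cSGcm CHAC1 was 1.56-fold lower (log2 -0.64, SE 0.103), which fell under the 1.5-fold criterion without the first control library (-0.48) or the first E8-cSGcm library (-0.53). In E8-cDRGcm the log2 difference was -0.40 (SE 0.1004).

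PPP1R15A (ENSG00000087074, chromosome 19, 49375469 to 49379316, plus strand) encodes GADD34, a subunit of the phosphatase that dephosphorylates eIF2alpha and restores translation. It had 27.2 and 25.0 CPM in control medium, 28.8 and 31.9 in E8-cSGcm, 82.1 and 75.0 in E8-cDRGcm and 34.5 and 33.9 in E15.5-mSGcm. All conditioned libraries were above both controls, but only E8-cDRGcm passed the fold criterion, at 3.01-fold (log2 1.59, SE 0.0789). The log2 difference was 0.22 (SE 0.0889) in E8-cSGcm and 0.39 (SE 0.0949) in E15.5-mSGcm.

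The remaining regulators act on growth and mTORC1 signalling. DDIT4 (ENSG00000168209, chromosome 10, 74033678 to 74035794, plus strand), known as REDD1, an mTORC1 inhibitor, had 102 and 82.5 CPM in control medium, 88.8 and 106 in E8-cSGcm, 114 and 115 in E8-cDRGcm and 70.5 and 69.6 in E15.5-mSGcm. Both E8-cDRGcm libraries were above and both E15.5-mSGcm libraries below the controls. No difference from control passed the fold criterion, with log2 values of 0.082 (SE 0.0968), 0.31 (SE 0.0954) and -0.40 (SE 0.107).

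SESN2 (ENSG00000130766, chromosome 1, 28586029 to 28609002, plus strand), a leucine sensor that inhibits mTORC1, had 36.8 and 31.7 CPM in control medium, 23.0 and 26.8 in E8-cSGcm, 29.3 and 30.6 in E8-cDRGcm and 17.4 and 16.8 in E15.5-mSGcm. Every conditioned library was below both controls, and the media ranked E15.5-mSGcm, E8-cSGcm, E8-cDRGcm and control from low to high without overlap. SESN2 was 2.00-fold lower in E15.5-mSGcm (95% interval of the log2 difference -1.23 to -0.77). Its log2 difference was -0.45 (SE 0.0941) in E8-cSGcm and -0.19 (SE 0.0914) in E8-cDRGcm.

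NIBAN1 (ENSG00000135842, chromosome 1, 184759858 to 184943640, minus strand), a stress-induced protein linked to the control of translation, had the widest range of the 10. It was lowest in control medium, with 14 and 20 reads (1.07 and 1.31 CPM), and reached 148 and 211 reads in E8-cSGcm (11.8 and 14.7 CPM), 557 and 549 in E8-cDRGcm (41.6 and 40.1 CPM) and 33 and 39 in E15.5-mSGcm (4.22 and 4.45 CPM). The 4 media did not overlap. NIBAN1 was 11.1-fold higher in E8-cSGcm (log2 3.47, SE 0.203), 33.8-fold higher in E8-cDRGcm (log2 5.08, SE 0.165) and 3.60-fold higher in E15.5-mSGcm (log2 1.85, SE 0.288), and these folds rest on the few control reads.

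By the study's criteria, an adjusted p under 0.05 and a change of at least 1.5-fold, applied to edgeR's quasi-likelihood test, 3 of the 10 regulators were called up in E8-cSGcm (TRIB3, DDIT3 and NIBAN1), beside 4.73% of all genes tested, and 2 down (ATF3 and CHAC1), beside 3.86%. In E8-cDRGcm 5 were called, all up (TRIB3, DDIT3, NIBAN1, PPP1R15A and CEBPB), beside 9.81% of all genes. In E15.5-mSGcm 1 was called up (NIBAN1), beside 6.65%, and 3 down (ATF3, CHAC1 and SESN2), beside 7.27%. As the contrast was known when the list was made, nothing is read from these shares. The median log2 difference of the 10 was 0.078, 0.58 and -0.33 in the 3 media, against 0.010, 0.0055 and -0.015 over all genes tested. The 3 comparisons share the control libraries.

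**Figure D2:**
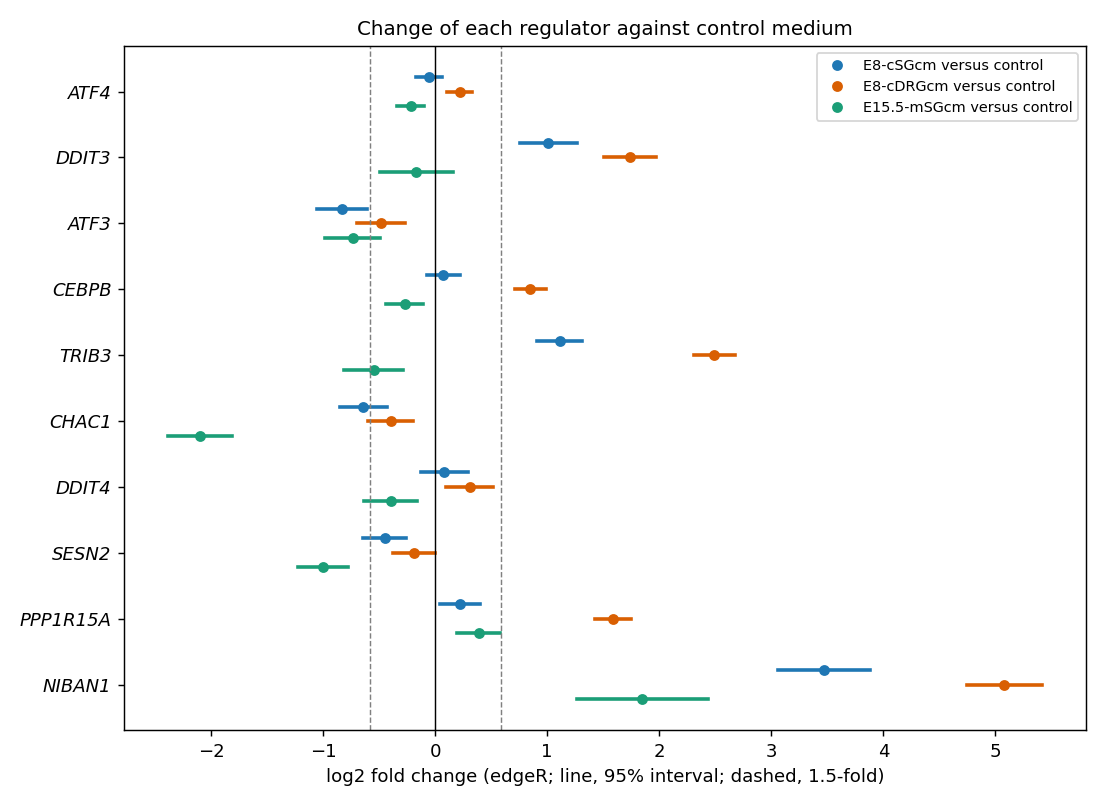
log2 fold change of each regulator against control medium in E8-cSGcm, E8-cDRGcm and E15.5-mSGcm, with the 95% interval from edgeR as a line and 1.5-fold as dashed lines. NIBAN1 lies above 0 in all 3 media, from 1.85 to 5.08, CHAC1 lies below 0 in all 3, and TRIB3 lies above 0 in the chick media only. The intervals describe the spread between libraries. They are not read as tests, because these changes were known when the list was made.

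Levels of different genes were compared per length, as FPKM, the CPM per kilobase of exonic sequence. In control medium ATF4 had the highest mean, 126 FPKM, followed by DDIT4 (44.9), CEBPB (26.3), CHAC1 (15.7), SESN2 (9.89), TRIB3 (9.01), DDIT3 (7.78), PPP1R15A (7.61), ATF3 (6.72) and NIBAN1 (0.143). The values of the 2 libraries overlapped between SESN2 and TRIB3 and between DDIT3 and PPP1R15A, so these neighbours were not separated by their spread. In E8-cDRGcm the order was ATF4 (146), DDIT4 (55.4), TRIB3 (50.6), CEBPB (47.3), DDIT3 (25.9), PPP1R15A (22.9), CHAC1 (11.8), SESN2 (8.65), NIBAN1 (4.91) and ATF3 (4.79). TRIB3 had risen to the level of CEBPB, whose libraries it overlapped, and ATF3 and NIBAN1, at the bottom, overlapped.

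The ratio of 2 regulators within a library does not depend on scaling between libraries. TRIB3 had 0.858 and 1 read per CHAC1 read in control medium, 3.00 and 3.21 in E8-cSGcm, 6.64 and 7.06 in E8-cDRGcm, and 2.61 and 2.79 in E15.5-mSGcm. The rise held in all 3 media, with more TRIB3 and less CHAC1 in the chick media, and with a larger difference in CHAC1 than in TRIB3 in E15.5-mSGcm. DDIT3 per ATF3 read went from 0.370 and 0.388 in control medium to 1.34 and 1.37 in E8-cSGcm, 1.96 and 1.60 in E8-cDRGcm and 0.504 and 0.611 in E15.5-mSGcm. NIBAN1 per SESN2 read went from 0.0290 and 0.0414 to 0.516 and 0.549, 1.42 and 1.31, and 0.243 and 0.265 in the same order. CHAC1 per ATF4 read showed the opposite course, with 0.102 and 0.0930 in control medium and 0.0262 and 0.0266 in E15.5-mSGcm. TRIB3 per ATF4 read was 0.0877 and 0.0930 in control medium, 0.188 and 0.214 in E8-cSGcm and 0.404 and 0.469 in E8-cDRGcm. In E15.5-mSGcm it was lower than in control medium, at 0.0684 and 0.0743. TRIB3 with CHAC1, DDIT3 with ATF3 and NIBAN1 with SESN2 each set a regulator above control medium in both chick media against another below it. These directions were known, so the higher ratios there follow from the choice of pairs. These ratios of reads compare each pair across media, and are not levels of a gene per length.

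**Figure D3:**
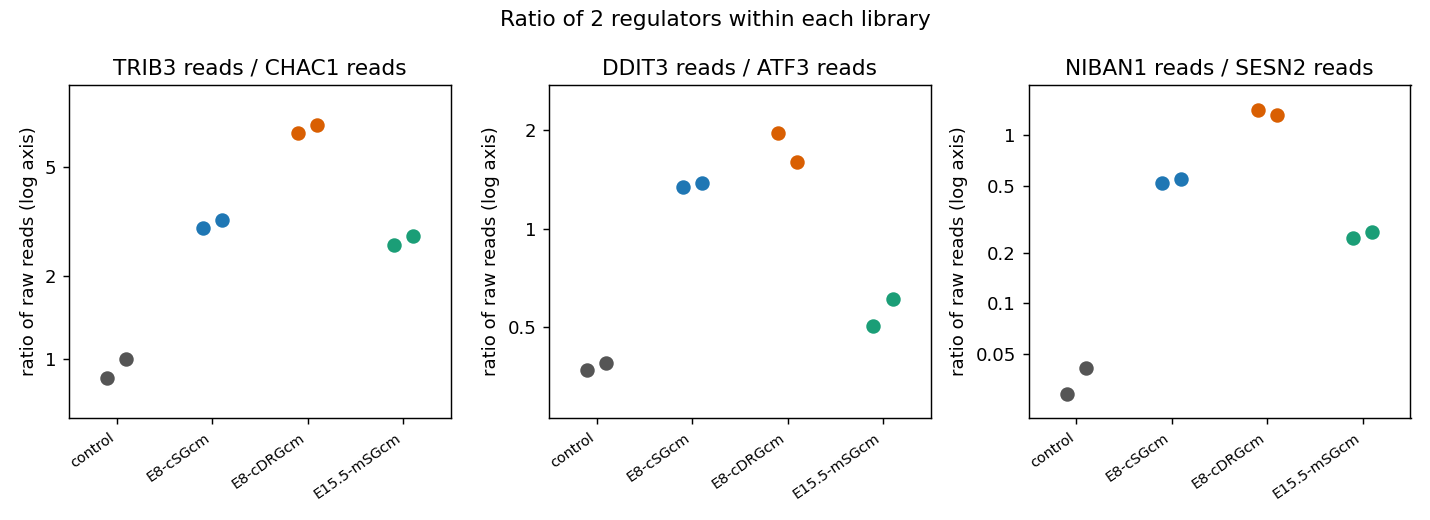
Ratio of the raw reads of TRIB3 to CHAC1, DDIT3 to ATF3 and NIBAN1 to SESN2 in each library, on a log axis. All 6 conditioned libraries lie above both control libraries in each panel, with the E8-cDRGcm libraries highest. Each pair sets a regulator above control medium in the chick media against another below it, and these directions were known.

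The media were then compared with each other, in the same edgeR model and with the adjusted p over all 16680 genes. Earlier results of these libraries were known when the genes were chosen, so these tests are not independent of that choice. Between the chick media, all 10 regulators were higher in E8-cDRGcm than in E8-cSGcm, with no overlap of libraries, which holds for 30.7% of all genes tested. TRIB3 was 2.61-fold higher in E8-cDRGcm (log2 1.38, SE 0.0808, adjusted p = 2.24e-11, edgeR). PPP1R15A (log2 1.37, SE 0.0777, adjusted p = 2.90e-16), NIBAN1 (log2 1.61, SE 0.105, adjusted p = 1.52e-14), CEBPB (log2 0.77, SE 0.0683, adjusted p = 3.06e-11) and DDIT3 (log2 0.73, SE 0.103, adjusted p = 7.73e-07) passed both criteria as well. That made 5 of 10 called, beside 2.62% of all genes called up. The other 5 moved by less. The differences of ATF4 (log2 0.27, adjusted p = 2.92e-04), ATF3 (0.35, adjusted p = 0.0203) and SESN2 (0.26, adjusted p = 0.0366) were under 1.5-fold, and those of CHAC1 (0.24, 95% interval 0.025 to 0.46, adjusted p = 0.0856) and DDIT4 (0.23, interval 0.017 to 0.43, adjusted p = 0.0986) did not pass the adjusted p.

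Between the sympathetic ganglia of mouse and chick, 4 of the 10 regulators were called and all 4 were lower in E15.5-mSGcm, beside 12.1% of all genes called down. The libraries of 8 regulators lay lower without overlap, which holds for 38.3% of all genes tested. Those of PPP1R15A lay higher without overlap. The 4 called were TRIB3 (log2 -1.66, SE 0.115, adjusted p = 7.48e-11, edgeR), NIBAN1 (-1.62, SE 0.178, adjusted p = 1.13e-09), CHAC1 (-1.46, SE 0.152, adjusted p = 3.41e-10) and DDIT3 (-1.18, SE 0.144, adjusted p = 1.25e-08). SESN2 (-0.55, adjusted p = 1.59e-04) and DDIT4 (-0.48, adjusted p = 0.00241) were lower by less than 1.5-fold, and both passed that criterion without the first E8-cSGcm library (-0.67 and -0.61). SESN2 also passed it with the filter at 1 count over all libraries and with library totals without TMM. Corrected for GC content and exonic length, the differences of SESN2 and DDIT4 were smaller, at -0.29 and -0.26. CEBPB (-0.35, adjusted p = 4.94e-04) and ATF4 (-0.16, adjusted p = 0.0216) were lower by less, and the correction for GC content and length turned them to 0.069 and 0.037. ATF3 (0.097, interval -0.17 to 0.36, adjusted p = 0.576) and PPP1R15A (0.17, interval -0.020 to 0.36, adjusted p = 0.134) did not pass.

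Against E8-cDRGcm, E15.5-mSGcm showed the widest gaps: all 10 regulators were lower without overlap, which holds for 38.0% of all genes tested, and 8 were called, beside 13.1% of all genes called down. NIBAN1 (log2 -3.23, SE 0.148, adjusted p = 2.74e-20, edgeR) and TRIB3 (-3.04, SE 0.105, adjusted p = 1.85e-16) differed most. DDIT3 (-1.90), CHAC1 (-1.70), PPP1R15A (-1.20), CEBPB (-1.12), SESN2 (-0.81) and DDIT4 (-0.70) followed, with adjusted p from 2.99e-15 to 9.72e-05. The DDIT4 difference was -0.56, under the fold criterion, with the GC and length correction. ATF4 was lower by less than 1.5-fold (-0.44, adjusted p = 1.15e-07), and ATF3 did not pass (-0.25, interval -0.51 to 0.0053, adjusted p = 0.0943). The median over the 10 was -1.16, against -0.00050 over all genes. The comparisons between media share libraries, so their values stand side by side and were not correlated.

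**Figure D4:**
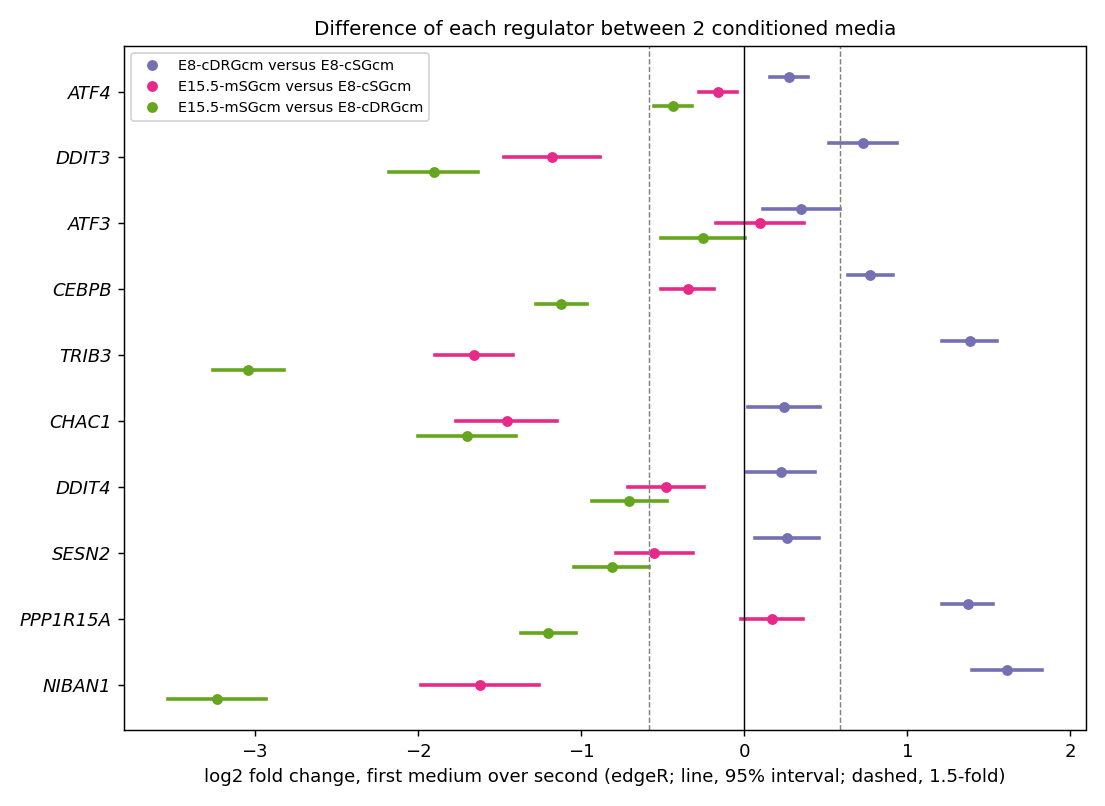
log2 fold change of each regulator between 2 conditioned media (first over second), with the 95% interval from edgeR as a line and 1.5-fold as dashed lines. All 10 regulators lie above 0 for E8-cDRGcm against E8-cSGcm and below 0 for E15.5-mSGcm against E8-cDRGcm.

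Other genes of the pathway were followed as lists of genes by role. For comparison, 4.73% of all genes tested were called up and 3.86% down in E8-cSGcm, 9.81% and 10.9% in E8-cDRGcm, and 6.65% and 7.27% in E15.5-mSGcm, with medians of 0.010, 0.0055 and -0.015 on the log2 scale, and no list was tested against that background. Upstream, the kinases and their activators (10 genes) had no call in E8-cSGcm by edgeR or DESeq2, although 5 had an unadjusted p under 0.05. In E8-cDRGcm only DELE1, which relays mitochondrial stress to HRI, was called, lower than in control (log2 -0.71, adjusted p = 9.26e-08, edgeR). E15.5-mSGcm had 3 calls. EIF2AK3, the ER stress kinase PERK, had 38.3 and 38.0 CPM in control medium and 73.7 and 80.2 in E15.5-mSGcm (log2 1.01, SE 0.0786, adjusted p = 3.60e-13, edgeR). The others were DNAJC3 (higher), an inhibitor of PERK and PKR, and OMA1 (lower), the protease that cleaves DELE1, whose call was lost without the first control library (adjusted p = 0.0735, edgeR) and without either E15.5-mSGcm library (adjusted p = 0.0590 and 0.101). Among 12 subunits of eIF2, eIF2B and the eIF2alpha phosphatases, the only call over the 3 media was EIF2S2 in E8-cDRGcm (log2 0.63, adjusted p = 7.08e-10, edgeR), and its change fell to 0.57 without the first E8-cDRGcm library. In E8-cSGcm 6 and in E15.5-mSGcm 4 of these 12 had an unadjusted p under 0.05, with no call by edgeR or DESeq2.

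Relatives of the 10 regulators from the same families were mostly not called. Of 14 tested, 2 were higher in E8-cSGcm (ATF5 and BATF3), 2 higher in E8-cDRGcm (ATF5 and CEBPG), and 3 higher (DDIT4L, SESN3 and CEBPD) and 1 lower (NIBAN2) in E15.5-mSGcm. ATF5, a factor translated in the same way as ATF4, had 31.5 and 30.7 CPM in control medium, 91.3 and 103 in E8-cSGcm, 148 and 150 in E8-cDRGcm and 31.5 and 36.3 in E15.5-mSGcm, so that the chick media lay above control medium and E15.5-mSGcm overlapped it. It was higher by a log2 of 1.64 (SE 0.0724) and 2.26 (SE 0.0701) in the chick media (adjusted p = 8.05e-20 and 3.15e-25, edgeR). DDIT4L and SESN3, relatives of DDIT4 and SESN2, were higher in E15.5-mSGcm, where DDIT4 and SESN2 were at their lowest. SESN3 had 393 and 426 CPM in control medium and 879 and 938 in E15.5-mSGcm (log2 1.15, SE 0.0508, adjusted p = 3.11e-20, edgeR), and DDIT4L went from 5 and 8 reads to 39 and 44.

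Downstream, 18 further effectors of ATF4 and CHOP had 7 calls in E8-cSGcm, 12 in E8-cDRGcm and 4 in E15.5-mSGcm, all of them up and ATF5 and CEBPG again among them, with medians of 0.39, 0.80 and 0.12 on the log2 scale. GDF15, a secreted stress cytokine, had 0 and 2 reads in control medium, 47 and 60 in E8-cSGcm, 257 and 309 in E8-cDRGcm and 6 and 17 in E15.5-mSGcm. The stress hormone FGF21 had reads in the chick media only, 7 and 6 in E8-cSGcm and 11 and 12 in E8-cDRGcm. CHMP4C, an ESCRT-III subunit, rose in E8-cDRGcm (log2 2.40, SE 0.313, adjusted p = 4.50e-08, edgeR), from 9 and 19 to 77 and 65 reads. The amino acid enzymes and transporters under ATF4 (20 genes) had 10 calls up and 1 down in E8-cSGcm, 14 up and 1 down in E8-cDRGcm, and 4 down in E15.5-mSGcm, with medians of 0.56, 0.91 and -0.24. The gene lower in both chick media was SLC6A9, a glycine transporter.

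ASNS, asparagine synthetase, had 3.28 and 4.46 CPM in control medium, 10.8 and 12.2 in E8-cSGcm, 26.5 and 28.8 in E8-cDRGcm and 2.05 and 2.74 in E15.5-mSGcm. It rose by 1.56 (SE 0.168) and 2.82 (SE 0.145) on the log2 scale in the chick media (adjusted p = 2.36e-09 and 1.35e-18, edgeR). Its lower level in E15.5-mSGcm (adjusted p = 0.0370, edgeR) did not pass without the second control library (adjusted p = 0.314). CTH, the cystathionine gamma-lyase of cysteine synthesis, and GPT2, an alanine aminotransferase, rose in both chick media, by 1.04 and 1.76 for CTH and by 0.81 and 1.43 for GPT2 on the log2 scale (highest adjusted p of the 4 = 5.20e-11, edgeR). CTH was called down in E15.5-mSGcm (log2 -0.59, adjusted p = 3.76e-04, edgeR), and this fell under the fold criterion without the first control library (-0.53), the second E15.5-mSGcm library (-0.54) or the first E8-cDRGcm library (-0.58). SLC7A5, the leucine transporter, and SLC1A5, a glutamine transporter, were lower in E15.5-mSGcm, at -1.07 (adjusted p = 5.99e-16, edgeR) and -0.67 (adjusted p = 1.47e-13).

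The ER unfolded protein response genes of ATF6 and XBP1, a pathway that runs beside the integrated stress response, took a mixed course. Of 17 tested, 2 were called in E8-cSGcm (ERN1 and EDEM1, up), and 5 up (ERN1, EDEM1, HERPUD1, SEL1L and ATF6) and 8 down in E8-cDRGcm. In E15.5-mSGcm 2 were called up (SEL1L and PDIA6). The medians were 0.094, -0.52 and 0.31. ERN1, the sensor kinase IRE1, had 12.7 and 13.1 CPM in control medium, 23.8 and 24.2 in E8-cSGcm and 49.4 and 48.6 in E8-cDRGcm (log2 0.90 and 1.93, adjusted p = 1.01e-08 and 2.48e-19, edgeR). EDEM1, which sends misfolded proteins to degradation, rose by 0.84 and 1.41. The genes lower in E8-cDRGcm were chaperones and folding helpers, HSPA5, HSP90B1, CALR, PDIA4, DNAJB11, MANF, CRELD2 and SDF2L1. SDF2L1 went from 23.5 and 24.7 to 9.18 and 10.5 CPM (log2 -1.29, SE 0.114, adjusted p = 4.58e-12, edgeR).

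Lists of other stress programs were followed for comparison, and some of their genes also belong to the integrated stress response. Of 13 immediate-early genes, 1 was called up and 1 down in E8-cSGcm, 5 up in E8-cDRGcm, and 4 up and 1 down in E15.5-mSGcm. The 15 p53 targets gave 1 up and 1 down, 3 up and 1 down, and 5 up in the same order. TNFRSF10B, a death receptor that CHOP also induces and that is on the effector list as well, rose in all 3 media, by 0.70, 1.51 and 0.78 on the log2 scale, whereas TP53INP1 fell in the chick media (-0.72 and -1.19) and rose in E15.5-mSGcm (0.76). Hypoxia genes (11) gave 3 up and 1 down, 1 up and 2 down, and 1 down. Glucocorticoid receptor targets (7) gave 1, 2 and 2 up, and SGK1, the kinase of that list, went from 8 and 8 reads in control medium to 61 and 91 in E15.5-mSGcm (log2 3.99, SE 0.359, adjusted p = 4.02e-11, edgeR).

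**Figure D5:**
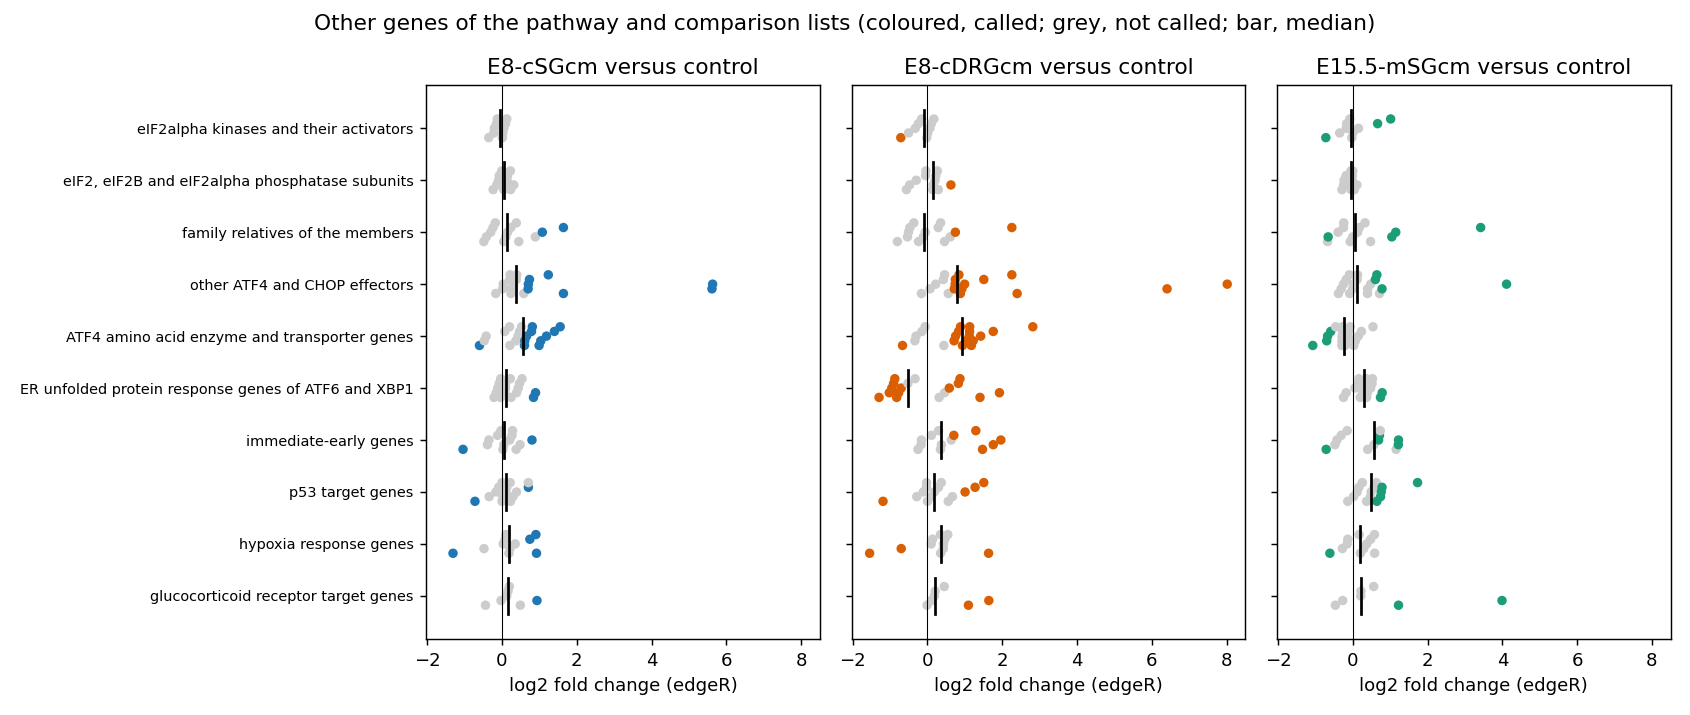
log2 fold change against control medium of the tested genes of 10 lists, 1 row per list and 1 panel per medium. Coloured points were called, grey points were not, and bars are medians; points near 6 and 8 are FGF21 and GDF15, whose fitted values depend on near-absent control reads. The effector list has 7, 12 and 4 calls up in the order of the panels, and the ER list of E8-cDRGcm has 5 calls up and 8 down.

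Over the 8 libraries, the mean z score of the 10 regulators was followed most closely by ATF4 (Pearson r = 0.97), CEBPB (0.96), DDIT4 (0.96), TRIB3 (0.93) and DDIT3 (0.88). SESN2 (0.74), CHAC1 (0.73), PPP1R15A (0.72) and NIBAN1 (0.63) followed it less, and ATF3 least (0.30). Each regulator is part of that mean, and the points share 4 media with 2 libraries each, so these are descriptions. The 5 other protein-coding genes most like the mean were IFRD1 (0.99), a transcriptional co-regulator, GTSE1 (0.99), a cell cycle protein, HACD2 (0.99), an enzyme of fatty acid elongation, UBE2M (0.99), the NEDD8-conjugating enzyme, and IER5L (0.98).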

How the data were processed

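RNA of IGR-N91 aggregates in 4 media (2 libraries each) was sequenced as 75 bp single reads from 50 ng of total RNA (RIN above 8.0) with a stranded total RNA kit. The authors trimmed, mapped and counted the reads (cutadapt 1.9.1, TopHat2 2.1.0 and HTSeq 0.11.3, after bcl2fastq 2.17.1.14, per the submitters' processing notes and the methods) and deposited raw counts per Ensembl gene, without normalization. The methods name build hg19 and the processing notes name hg38. The annotation release and the strand option are not given in the sources used here.

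Libraries were grouped by their labels. Symbols, positions and exonic lengths came from GENCODE 44 on GRCh37 (58611 of 60676 identifiers matched), and promoter windows from RefSeq (GRCh38.p14). Counts were filtered with filterByExpr by group, scaled by TMM and fitted with edgeR 4.0.16 (robust quasi-likelihood, all 8 libraries in 1 model) in R 4.3.3, with Benjamini-Hochberg adjustment over 16680 genes. A call needed an adjusted p under 0.05 and a change of 1.5-fold. The SE is the log2 fold change over the root of its F statistic. FPKM is the scaled CPM per kilobase. The steps were tested on simulated counts.

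The 10 regulators and all lists were chosen with earlier results of these data known. Of each list, up to 3 called genes with the largest change and no overlap with control libraries were named. A few more genes were chosen after their values were seen (BATF3, CEBPG, CEBPD, NIBAN2, DNAJC3, SLC6A9, SLC7A5, SLC1A5, SEL1L, PDIA6, HERPUD1, ATF6 and the folding genes). The genes most like the regulators were the 5 with the highest correlation to their mean z score (log2 CPM, prior count 2). Motifs were searched on both strands. The summed level of the glial marker list is not reported here. Alternatives were DESeq2 1.42.0, RLE factors, a filter at 1 count over all libraries or at 10 counts in each, fits of the 4 libraries compared, calls without a fold criterion, thinning to 7930765 counts, a GC and length correction by splines (5 degrees of freedom), a replicate block, leaving out 1 library and, chosen after seeing the data, library totals without TMM.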

Additional observations from a re-analysis of the deposited data

Results flagged for a closer look

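For 5 differences between media, both libraries of 1 medium were above both control libraries and both libraries of the other were below them. TRIB3 was above control in E8-cSGcm and below it in E15.5-mSGcm (log2 difference E15.5-mSGcm over E8-cSGcm -1.66, adjusted p = 7.48e-11, edgeR). Between E15.5-mSGcm and E8-cDRGcm the same held for TRIB3 (-3.04, adjusted p = 1.85e-16), CEBPB (-1.12, adjusted p = 2.99e-15), DDIT4 (-0.70, adjusted p = 9.72e-05) and ATF4 (-0.44, adjusted p = 1.15e-07), each by edgeR's quasi-likelihood test of the difference itself. Both sides share the control libraries. The 5 were picked because the 2 media lay on opposite sides of the controls, and the genes with earlier results known. These p-values are therefore not independent of either choice. The share of all genes with this pattern was not counted. With the GC and length correction, the fitted difference of CEBPB between E15.5-mSGcm and control was no longer below 0 (log2 0.0097), and that of ATF4 was closer to it. The DDIT4 difference between E15.5-mSGcm and E8-cDRGcm was then -0.56, under the fold criterion. With 2 libraries per medium, single outlying libraries were not looked for.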

How the results depend on the processing

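Of 114 recomputed counts of regulators called, 110 stayed within 1.5 times the reported count. The 4 that moved came from dropping the fold criterion: 9 in E8-cDRGcm and 9 in E15.5-mSGcm against control, 8 between the chick media and 8 between E15.5-mSGcm and E8-cSGcm. With 1 library left out, 4 to 5 regulators were called in E8-cSGcm, 5 to 6 in E8-cDRGcm and 4 to 5 in E15.5-mSGcm against control, 5 between the chick media, 4 to 6 between E15.5-mSGcm and E8-cSGcm, and 8 between E15.5-mSGcm and E8-cDRGcm. Of 570 recomputed differences between media, 551 kept their direction and side of the threshold, 2 lost and 12 gained a call, and 5 reversed. The reversed ones, all for E15.5-mSGcm against E8-cSGcm, were ATF4 (0.037) and CEBPB (0.069) with the GC and length correction, the same values with that correction and the replicate block, and ATF3, which ranged from -0.030 to 0.22 with 1 library left out. The cause was not tested. Of 570 recomputed differences from control, 14 moved by more than the spread between libraries. The replicate numbers did not pair the libraries (correlations of deviations -0.0436 to 0.0420), and with them as a block the regulators called numbered 5, 5 and 4 against control and 5, 4 and 8 between media. Over all genes, DESeq2 called 861 in E8-cSGcm against control where edgeR called 1433, and 697 between the chick media where edgeR called 1249. Without the fold criterion, 5213, 8261 and 6305 genes were called against control where the reported rule gave 1433, 3460 and 2322, and 5037, 8304 and 8767 between media where it gave 1249, 3727 and 4368. No scaling moved the median of all genes by more than 0.1.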
